A study of Mus musculus with 745 samples.

Results

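The genes described here were Nov, Pi16, Fhl1, Cdh13, Lypd1, Stmn2, Ccnd2, Msx1, Alox12 and Mylk, 10 of the 20607 gene symbols measured in single endothelial cells of the mouse brain. They were picked because earlier results from these same cells placed them high in arterial cells and near 0 elsewhere, so their difference between arterial and other cells is given below as a description and not as a finding. The 745 cells came from young mice of 3 months, with no treatment and no second age. Tissue was dissociated with a Miltenyi neural kit and the cells were collected by FACS, with gate markers not given in the sources used here. The cell titles divided them into 3 sets, Young1 (30.2% of the cells), Young2 (34.6%) and AY_Y3 (35.2%). What a set stands for, be it 1 mouse, several or a plate, is not given, so p-values measure only the spread between sets, which may be technical.

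Arteries, capillaries and veins of the brain are lined by endothelial cells that form 1 continuous layer but differ in the genes they use along it. Arterial endothelium is set apart early in development by VEGF and Notch signalling, and later faces the highest flow and pressure. Within the arterial tree, Bmx, a tyrosine kinase, and Gkn3, a secreted gastrokine, mark arterioles in the mouse brain, whereas Fbln5, an elastic fibre protein, and Mgp, an inhibitor of calcification in the vessel wall, are known from larger arteries.

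The 10 genes fall into several roles. Nov (also named Ccn3) encodes a secreted matricellular protein of the CCN family, and Pi16 a CAP-domain protein first known from prostate secretions. Cdh13 encodes T-cadherin, which is anchored in the membrane by a lipid and binds adiponectin, and Lypd1 a small lipid-anchored protein of the Ly6 family that binds nicotinic receptors in neurons. Fhl1 encodes a LIM-domain protein best known from muscle, Stmn2 a stathmin that destabilises microtubules and is used as a neuronal marker, and Mylk the kinase that phosphorylates myosin light chain in contraction. Ccnd2 encodes cyclin D2, a partner of cyclin-dependent kinases, Msx1 a homeobox transcription factor, and Alox12 a lipoxygenase that oxidises arachidonic acid.

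Promoter windows, from 250 bases before to 50 bases after the start, were present in the RefSeq table (assembly GRCm38.p6) for 6 of the 10 genes, as 9 windows. Pi16, Fhl1 and Alox12 are shown because the first and second followed the large-artery marker Fbln5 in these cells and Alox12 did not. The windows lie at chr17:29318632-29318931 (plus strand, Pi16), chrX:56779433-56779732 and chrX:56786277-56786576 (plus strand, Fhl1), and chr11:70255321-70255620 (minus strand, Alox12). In GENCODE M21 the genes span chr17:29317680-29330593 for Pi16, chrX:56731787-56793346 for Fhl1 and chr11:70241457-70255353 for Alox12. The 2 Fhl1 windows have their starts 47896 and 54740 bases inside the first annotated start of that gene. They thus belong to later starts, as does the Pi16 window, whose start lies 1202 bases inside the first annotated start of Pi16. Capitals mark each match to 1 of 7 short motifs, read on both strands.
Pi16: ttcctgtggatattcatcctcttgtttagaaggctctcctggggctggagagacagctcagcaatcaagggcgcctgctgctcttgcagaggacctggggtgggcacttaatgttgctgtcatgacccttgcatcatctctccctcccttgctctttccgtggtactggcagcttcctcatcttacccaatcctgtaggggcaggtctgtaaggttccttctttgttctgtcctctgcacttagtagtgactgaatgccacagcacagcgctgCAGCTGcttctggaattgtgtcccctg
Fhl1, first window: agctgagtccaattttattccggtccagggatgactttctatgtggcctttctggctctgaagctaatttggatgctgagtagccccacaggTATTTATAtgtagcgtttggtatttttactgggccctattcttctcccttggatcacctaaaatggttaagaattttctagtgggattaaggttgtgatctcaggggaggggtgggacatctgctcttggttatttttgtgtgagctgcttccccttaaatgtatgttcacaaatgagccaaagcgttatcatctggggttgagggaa
Fhl1, second window: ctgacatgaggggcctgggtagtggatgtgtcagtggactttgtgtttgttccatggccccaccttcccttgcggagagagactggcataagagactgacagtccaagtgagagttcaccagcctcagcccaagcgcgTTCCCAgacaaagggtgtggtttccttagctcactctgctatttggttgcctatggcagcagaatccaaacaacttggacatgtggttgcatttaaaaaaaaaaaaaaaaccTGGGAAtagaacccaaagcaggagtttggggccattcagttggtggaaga
Alox12: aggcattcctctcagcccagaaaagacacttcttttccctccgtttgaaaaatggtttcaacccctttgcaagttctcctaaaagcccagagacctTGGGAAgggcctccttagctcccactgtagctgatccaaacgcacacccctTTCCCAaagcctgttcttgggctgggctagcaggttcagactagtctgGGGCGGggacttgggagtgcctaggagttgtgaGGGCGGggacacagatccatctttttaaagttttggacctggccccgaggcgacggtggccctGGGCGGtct
The capitals in the Pi16 window are the E-box CAGCTG, which stands in 16.3% of all 32851 windows. The first Fhl1 window holds TATTTATA, a motif of MEF2 factors found in 1.70% of windows, and that match contains the reverse complement of TATAAA, the TATA motif, found in 13.6%. The second Fhl1 window and the Alox12 window each hold TGGGAA on both strands, the core read by the Notch effector RBPJ, found in 25.6%. Alox12 also holds GGGCGG at 3 places, a motif of SP and KLF factors found in 35.7%. The letters GTAAACA (FOX, 3.65% of windows) and AACAAT (SOX, 10.7%) were in none of the 9 windows. Across the 9 windows, TGGGAA stood in 3, GGGCGG in 5 and CAGCTG in 2. These matches describe the letters only.

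Each value was a raw count of reads in 1 cell, and CPM, the scale used below, is the count of a gene in a cell after every cell is scaled to the same total. A cell held between 52819 and 2421434 counts, with medians of 757949 in Young1, 713031 in Young2 and 411397 in AY_Y3. Clustering left 697 endothelial cells. On arterial, capillary and venous markers, with none of the 10 genes among them, 22.8% of these were named arterial-like, 32.4% capillary-like and 17.9% venous-like, and 26.8%, in 4 of the 12 clusters, stayed unnamed. The arterial markers summed to 5389 ± 988 CPM in arterial-like cells, against 893 ± 144.5 CPM in capillary-like and 598 ± 154.1 CPM in venous-like cells (SD over 3 sets). Cells of clusters with pericyte markers (27) or astrocyte markers (21) were set apart.

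Shares of arterial-like cells with at least 1 count ran from 22.6% for Alox12 to 84.9% for Ccnd2, with a mean of 46.4% over the 10 genes. None of the 10 was therefore present in every arterial-like cell. In capillary-like cells the shares ran from 0% for Pi16 and Fhl1 to 12.8% for Ccnd2, and in venous-like cells from 0% for Nov and Cdh13 to 12% for Mylk. In all 3 sets the mean CPM of each gene was higher in arterial-like cells than the highest set mean of capillary-like or venous-like cells. Unnamed cells were not part of this comparison. Over all 9192 genes tested, 9.31% had set means that lay apart in this direction against capillary-like cells, and 9.38% against venous-like cells. The choice of the genes fixed this result, so nothing is read from it.

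**Figure D1:**
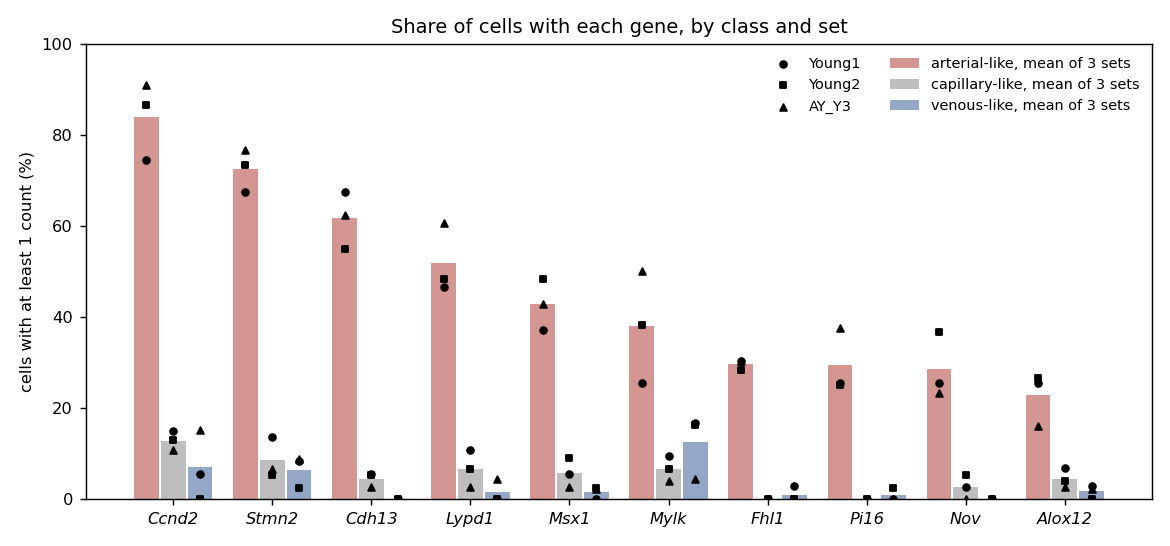
Share of cells with at least 1 count (%) for each gene by class, arterial-like first, then capillary-like and venous-like; bars are means of 3 sets and points the sets. Arterial-like bars stand above both others for each gene, from Ccnd2 (84.9% over all arterial-like cells) down to Alox12 (22.6%).

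Among the secreted and surface proteins, Nov was found in 46 arterial-like cells, or 28.9% (exact binomial 95% interval 22.02 to 36.6). Its mean was 253.2, 401 and 240.4 CPM in arterial-like cells of Young1, Young2 and AY_Y3, against 38.5, 72.2 and 0 CPM in capillary-like cells and 0 CPM in venous-like cells of every set. Cells with Nov held much of it, with a median of 699 CPM and a highest value of 4596 CPM. The few capillary-like cells with Nov, 6 in number, had a median of 1320 CPM, so Nov outside the class was rare and not low.

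Pi16 was the most restricted of the 10 genes. It had a count in 47 arterial-like cells (29.6%, interval 22.6 to 37.3), in no capillary-like cell (0%, interval up to 1.62) and in 1 venous-like cell, and that cell had a single count. Mean Pi16 was 444, 225.1 and 429 CPM in arterial-like cells of Young1, Young2 and AY_Y3, against 0 CPM in capillary-like cells of each set. Against a floor of 3 counts over the capillary-like class, Pi16 was at least 14195-fold higher in arterial-like cells. Over venous-like cells, the ratio from that single count was 24147.5 (95% counting interval 4334 to 953776). Reads without molecular identifiers are not independent molecules, so intervals and floors cover counting error only.

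Cdh13 was present in 97 arterial-like cells (61.01%, interval 52.96 to 68.6), in 10 capillary-like cells and in no venous-like cell. Its mean was 768, 577 and 658 CPM in arterial-like cells of Young1, Young2 and AY_Y3, against 58.7, 63.1 and 1.78 CPM in capillary-like cells. Pooled over cells it was 15.9-fold above the capillary-like level in arterial-like cells, and at least 19387-fold higher than in venous-like cells against the same floor of 3 counts over that class. As a ratio of the highest to the lowest set mean, though not in CPM, the sets differed more in capillary-like than in arterial-like cells.

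Lypd1 was found in 83 arterial-like cells (52.2%, interval 44.2 to 60.2), with means of 137.99, 143.8 and 187.4 CPM in Young1, Young2 and AY_Y3. In capillary-like cells the means were 14.8, 18.8 and 6.67 CPM, and in venous-like cells 0, 0 and 12.3 CPM. Only AY_Y3 had venous-like cells with Lypd1, 2 in number. Lypd1 shares 1202 bases of its exons (17.1%) with Gpr39, a zinc-sensing receptor gene on the other strand, in GENCODE M21 (GRCm38). The use of strand is not given, so reads in the shared bases cannot be told apart. Gpr39 had 49 counts in arterial-like cells, beside 21286 for Lypd1, and all 30 arterial-like cells with Gpr39 also had Lypd1.

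Of the genes for muscle and cytoskeletal proteins, Fhl1 resembled Pi16 in its restriction. A count of Fhl1 was seen in 47 arterial-like cells (29.6%), no capillary-like cell (0%, interval up to 1.62) and 1 venous-like cell. The arterial-like means of 180.8, 233.4 and 186.8 CPM in Young1, Young2 and AY_Y3 stood against 0 CPM in capillary-like cells of each set and 0.227, 0 and 0 CPM in venous-like cells. Fhl1 was at least 8172-fold higher than in capillary-like cells, against the floor of 3 counts over the class, and 6951 times the venous-like level, which rested on 2 counts (interval 1924 to 57398). The share was nearly the same in every set, 30.2%, 28.3% and 30.4%. Outside the arterial-like class 4 endothelial cells held Fhl1, and the highest of these, in an unnamed cluster, reached 1613 CPM.

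Stmn2 was the second most widespread gene, in 72.96% of arterial-like cells (interval 65.3 to 79.7). Means were 394, 426 and 457 CPM in arterial-like cells of Young1, Young2 and AY_Y3, against 49.4, 22.7 and 15.01 CPM in capillary-like cells and 0.330, 1.63 and 5.67 CPM in venous-like cells. The 10 neuron markers (without Stmn2) summed to 11.3 CPM in arterial-like cells with Stmn2 and to 8.35 CPM in those without it. The sum of the pericyte markers was 270.5 CPM in cells with Stmn2 and 36.7 CPM in cells without. The part of neuronal or pericyte transcripts in the Stmn2 level was not tested.

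Mylk had a count in 62 arterial-like cells (38.99%, interval 31.4 to 47.04). Means were 150.2, 205.6 and 135.8 CPM in arterial-like cells of Young1, Young2 and AY_Y3, against 12.9, 4.35 and 4.95 CPM in capillary-like cells and 27.2, 13.5 and 2.39 CPM in venous-like cells. Mylk was found in 12% of venous-like and 6.64% of capillary-like cells, and the only other genes at a larger venous-like share were Pi16 and Fhl1, each through its single venous-like cell. Mylk was also frequent in pericyte-like cells, in 22 of 27 (81.5%, interval 61.9 to 93.7). Means there were 83.9, 532 and 384 CPM by set. The pericyte-like cells also held endothelium markers, at a sum of 12092 CPM against 18191 CPM in arterial-like cells. Their arterial markers summed to 2085 CPM, against 893 CPM in capillary-like cells. The part of endothelial transcripts in their Mylk level was not tested. Of the arterial-like cells with Mylk, 85.5% had no count of any of the 10 smooth muscle markers, and the sum of those markers averaged 598 CPM with Mylk against 29.4 CPM without. Such gaps were also seen for other genes, and the sums were 791 against 24.5 CPM for cells with and without Pi16, 765 against 35.5 CPM for Fhl1 and 658 against 85.4 CPM for Nov. Few cells carried these sums, since 38 of the 47 cells with Pi16, 44 of the 47 with Fhl1 and 38 of the 46 with Nov had none of the smooth muscle markers. The part of these markers in the levels was not tested. Next after Mylk in pericyte-like cells was Ccnd2, in 10 cells (37.04%), and Pi16 was in none of the 27.

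Ccnd2 was the most widespread gene, in 84.9% of arterial-like cells (interval 78.4 to 90.1), or 76.7% when every cell was thinned to 50000 counts. Its means were 565, 681 and 601 CPM in arterial-like cells of Young1, Young2 and AY_Y3, against 73.2, 60.99 and 22.3 CPM in capillary-like cells and 14.1, 0 and 63.6 CPM in venous-like cells. It was also the most frequent elsewhere, in 71 of the 538 endothelial cells outside the arterial-like class (13.2%).

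Msx1, the transcription factor of the group, was found in 69 arterial-like cells (43.4%, interval 35.6 to 51.5). Means were 93.7, 195.2 and 110.2 CPM in arterial-like cells of Young1, Young2 and AY_Y3, against 17.3, 13.7 and 2.87 CPM in capillary-like cells and 0, 1.02 and 1.37 CPM in venous-like cells. Msx1 in arterial-like cells was highest in Young2, and the lowest arterial-like set mean was still above the highest capillary-like or venous-like one.

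Alox12 was the least frequent, in 36 arterial-like cells (22.6%, interval 16.4 to 29.9). Its means were 138.85, 127.3 and 104.9 CPM in arterial-like cells of Young1, Young2 and AY_Y3, against 15.3, 13.5 and 7.17 CPM in capillary-like cells and 3.61, 0 and 3.54 CPM in venous-like cells. Arterial-like cells with Alox12 had a median of 803426 counts, against 598566 in those without it. For Nov these medians were 778846 and 553572 counts, whereas for Pi16 (537744 and 649419) and Fhl1 (503459 and 660354) the cells with the gene were the shallower ones. The part of depth in these shares was not tested beyond thinning, under which Alox12 stood at 20.1%, Nov at 27.04%, and Pi16 and Fhl1 both at 29.6%.

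The restriction of the genes was graded. Arterial-like cells held 97.9% of the endothelial cells with Pi16 and 92.2% of those with Fhl1, then 82.1% for Nov and 81.5% for Cdh13. At the other end stood Ccnd2 (65.5%), Mylk (61.4%) and Alox12 (66.7%). By counts in place of cells, the arterial-like share ran from 75.1% for Alox12 and Msx1 to 88.4% for Fhl1 and 99.997% for Pi16, with 1 of its 31042 counts elsewhere. Nearly exclusive thus describes Pi16 and Fhl1 best, and the other 8 genes had between 10 and 71 endothelial cells with a count outside the class.

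With sums per set and class in edgeR's quasi-likelihood test, 2 of the 10 genes passed at a Benjamini-Hochberg adjusted p of 0.05 against capillary-like cells, Pi16 (0.00175) and Fhl1 (0.0081). Of all 9192 genes tested, 0.446% passed as higher in this contrast. Against venous-like cells 5 passed, namely Pi16, Fhl1, Cdh13, Stmn2 and Msx1, where 0.979% of all genes passed as higher. These contrasts chose the genes, so the calls support nothing. Some of these calls were lost with only 2 sets. Fhl1 lost its call against capillary-like cells whichever set was left out (edgeR adjusted p 0.0532 to 0.10005). Pi16 did so without Young2 (0.0665) or AY_Y3 (0.0532), but kept its call without Young1. Against venous-like cells all 5 lost their call without Young2 (adjusted p 0.0599 to 0.260), Fhl1, Stmn2 and Msx1 without AY_Y3 (0.0555 to 0.216), and Cdh13 without Young1 (0.0671).

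An arterial-like cell held a median of 5 of the 10 genes (range 1 to 9), and 91 cells (57.2%) held 5 or more. No arterial-like cell lacked all 10 and none had all 10. In capillary-like cells the median was 0, with 68.6% of cells holding none and 4 cells holding 5 or more. In venous-like cells it was also 0, with 93 cells holding none and 1 holding 5 or more. The mean number per arterial-like cell was 4.26 in Young1, 4.67 in Young2 and 4.91 in AY_Y3. Of the 99 endothelial cells with 5 or more of the genes, 91 were arterial-like.

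**Figure D2:**
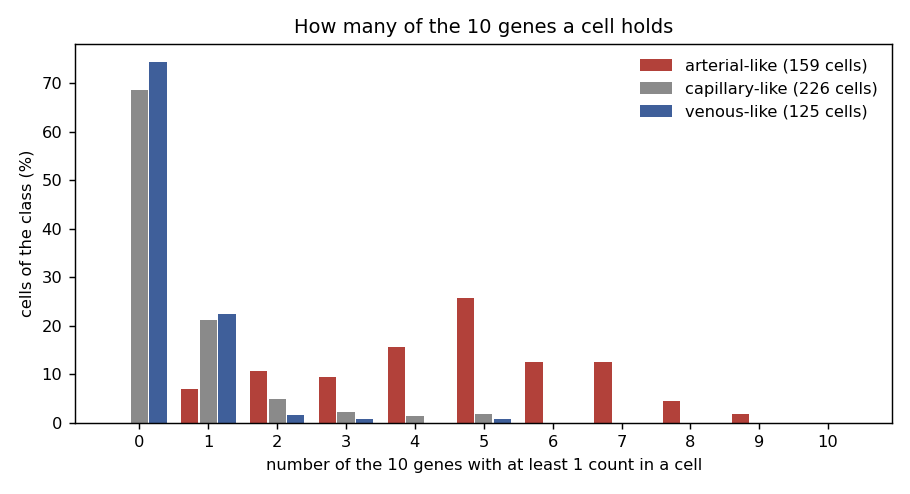
Percentage of cells of each class (vertical axis) by the number of the 10 genes with at least 1 count in the cell (horizontal axis). Arterial-like cells peak at 5 genes, and capillary-like and venous-like cells at 0.

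Outside the arterial-like class, 24 cells held 3 or more of the genes: 12 capillary-like, 10 unnamed and 2 venous-like. They had counts of a median of 5 of the 16 arterial markers, against 2 in the 514 other cells outside the class and 7 in arterial-like cells. Their median depth was 657752 counts, against 602101 in the 514 cells and 615548 in arterial-like cells. The genes were picked as high in arterial cells, which by itself goes with more arterial markers, so nothing is read from this difference. The part of depth was not tested.

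Within arterial-like cells, most of the genes went together weakly. Over the 45 pairs, Spearman's rho of CPM, computed within each set and averaged, had a mean of 0.0991 (0.112 in Young1, 0.0864 in Young2 and 0.0988 in AY_Y3) and ran from −0.221 to 0.486. Pairs among the 3636 genes found at shares of arterial-like cells within the range of these 10 had a mean of 0.0352, with 5% below −0.0996 and 5% above 0.172. Of the 45 pairs, 17 were positive and 5 negative in all 3 sets. The like share was not computed over the background pairs, so nothing is read from these counts. Across all 697 endothelial cells the mean was 0.317, which holds the difference between classes that chose the genes. The cells of a set share its libraries and depth, and these correlations are descriptions across cells.

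A first group was formed by Pi16, Cdh13, Ccnd2, Stmn2 and Fhl1. The closest pair of all was Pi16 with Cdh13, at 0.295, 0.604 and 0.559 in Young1, Young2 and AY_Y3 (mean 0.486). Of the 47 arterial-like cells with Pi16, 44 also had Cdh13 (93.6%), against 47.3% of cells without Pi16, and 46 also had Ccnd2 (97.9%, against 79.5%). Cdh13 with Ccnd2 had a mean rho of 0.332, Pi16 with Ccnd2 0.322, Fhl1 with Cdh13 0.278, and Fhl1 with Ccnd2 0.272. Pi16 and Fhl1, the 2 most restricted genes, were less regular together, with 0.347, 0.280 and −0.016 by set, and 20 of the 47 Pi16 cells also had Fhl1.

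A second link joined Nov with Cdh13 (mean rho 0.344) and with Lypd1 (0.302, positive in each set). Lypd1 was found in 33 of the 46 arterial-like cells with Nov (71.7%), against 44.2% of those without. Nov showed no such link with Fhl1, at a mean of −0.017 and a share of 28.3% with Nov against 30.1% without. Lypd1 and Mylk ran against each other in every set, at −0.074, −0.256 and −0.331 in Young1, Young2 and AY_Y3, and Mylk was in 31.3% of cells with Lypd1 against 47.4% of those without. Alox12 stood apart, with a mean rho of −0.129 with Ccnd2 and −0.091 with Pi16.

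**Figure D3:**
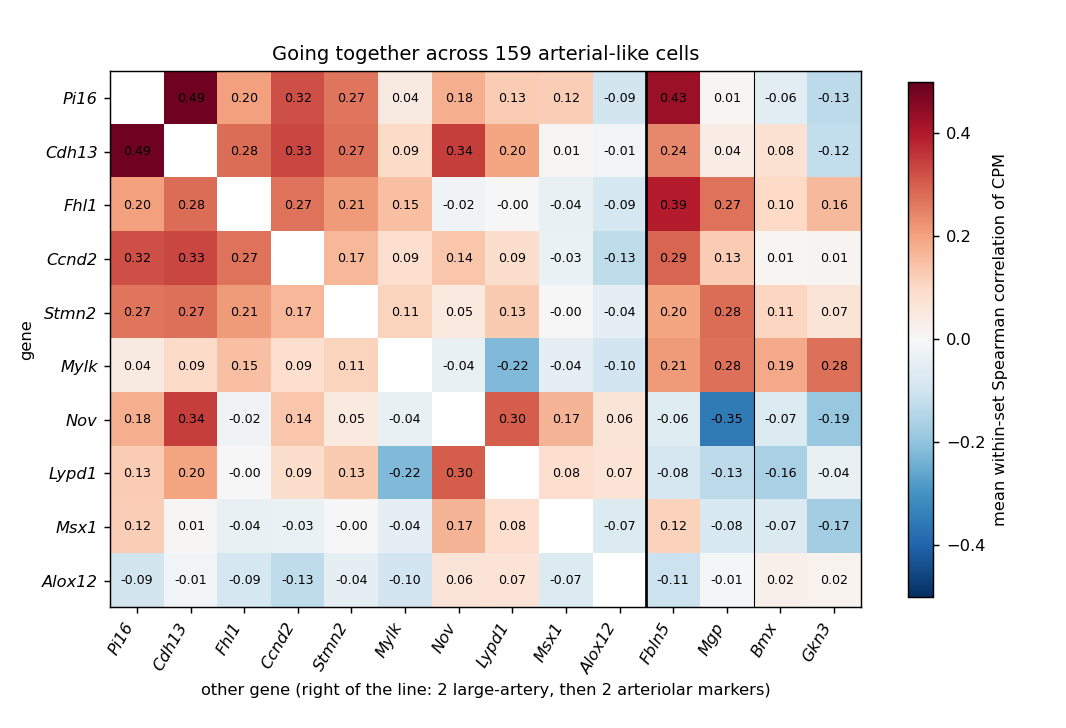
Mean within-set Spearman correlation of CPM across arterial-like cells, for each pair of genes and, right of the line, with the large-artery markers Fbln5 and Mgp and then the arteriolar markers Bmx and Gkn3. The red block at the upper left holds Pi16, Cdh13, Fhl1, Ccnd2 and Stmn2, with the highest value, 0.49, for Pi16 and Cdh13.

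Of the arteriolar and large-artery markers, Fbln5 was the one the genes followed most. Pi16 with Fbln5 had 0.378, 0.623 and 0.291 in Young1, Young2 and AY_Y3 (mean 0.431), and Fhl1 with Fbln5 had 0.349, 0.580 and 0.2497 (mean 0.393). Ccnd2 (0.291), Cdh13 (0.240) and Stmn2 (0.199) were also positive with Fbln5 in each set. With Mgp, the genes positive in each set were Stmn2 (0.278), Mylk (0.276), Fhl1 (0.271) and Ccnd2 (0.126). All 4 were also positive with Fbln5 in each set, though Mylk at only 0.0015 in Young1. Pi16 (0.011) and Cdh13 (0.035) stood near 0 with Mgp and did not keep 1 sign over the sets. Fbln5 and Mgp correlated with each other at 0.474.

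Mylk had the highest mean correlations of the 10 genes with the arteriolar markers, at 0.103, 0.280 and 0.447 with Gkn3 (mean 0.277) and at 0.157, 0.028 and 0.382 with Bmx (mean 0.189). It also followed Mgp, and with Fbln5 it stood at 0.001, 0.202 and 0.435. Fhl1 was also positive in each set with both, at a mean of 0.162 with Gkn3 and 0.0999 with Bmx, and Stmn2 (0.107) and Cdh13 (0.078) were positive in each set with Bmx. Mylk and Fhl1 were thus positive with all 4 markers in each set, but some of these values stood near 0. Mylk with Fbln5 was at 0.0015 in Young1 and Fhl1 with Bmx at 0.003 in Young2. Thinning turned both below 0 (−0.018 and −0.010), and also Mylk with Bmx in Young2 (−0.0017). Without cells highest in mural markers these values were again negative (−0.065, −0.027 and −0.012), as was Fhl1 with Gkn3 in Young1 (−0.034). On average the 2 kinds were not opposed in these cells. Gkn3 correlated with Mgp at 0.340 and with Fbln5 at 0.140, and Bmx with Mgp at 0.130, each positive in every set. Bmx with Fbln5 stood near 0, at a mean of 0.054, and was negative in Young2 (−0.054) and AY_Y3 (−0.008). Within the arteriolar kind, Gkn3 correlated with Bmx at 0.252.

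Nov ran opposite to Mgp, at −0.423, −0.321 and −0.320 in Young1, Young2 and AY_Y3 (mean −0.355), the most negative value of the 10 genes with any of the 4 markers. It was also negative with Gkn3 (−0.191) and near 0 with Fbln5 (−0.062). Lypd1 was negative with Bmx (−0.161) and Mgp (−0.132), and Msx1 with Gkn3 (−0.175). Alox12 followed neither kind, at 0.024 with Bmx, 0.019 with Gkn3, −0.011 with Mgp and −0.109 with Fbln5.

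**Figure D4:**
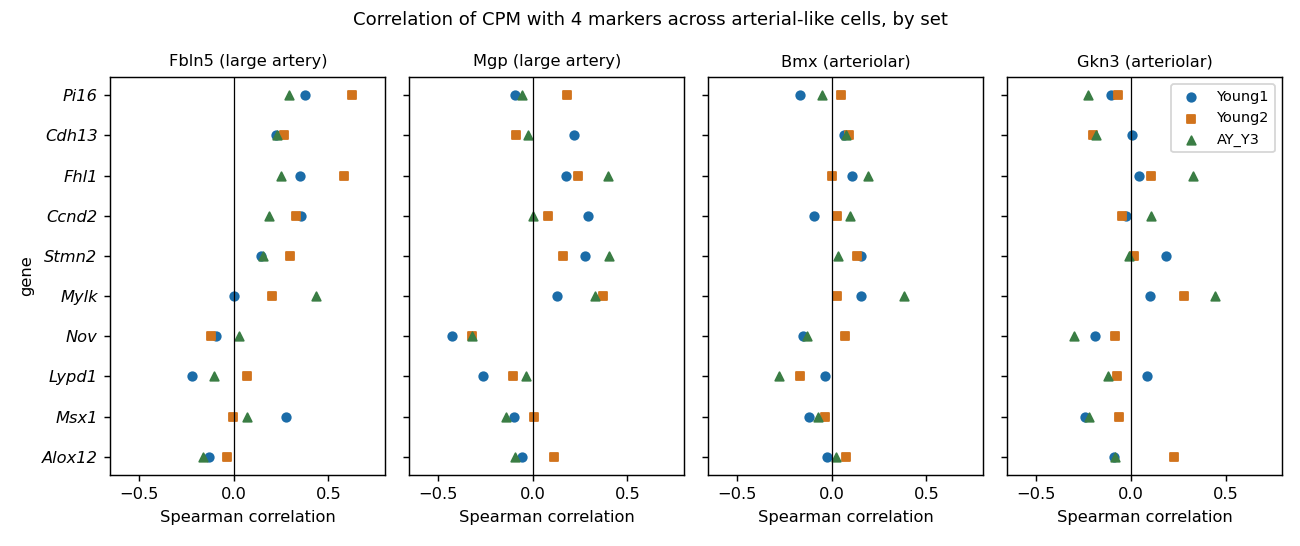
Spearman correlation of the CPM of each gene with Fbln5, Mgp, Bmx and Gkn3 across arterial-like cells, 1 point for each of the 3 sets. Pi16, Cdh13, Fhl1, Ccnd2 and Stmn2 lie right of 0 with Fbln5 in each set, and Nov lies left of 0 with Mgp, between −0.423 and −0.320.

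The arterial-like cells fell into a cluster of 40 cells led by Cytl1 and Fbln5 and another with all the rest. Clustering at this step used only markers, and none of the 10 genes was a marker, yet all genes of the same cells may vary with the markers, so the comparison is a description. Fbln5 averaged 1536 CPM in the Fbln5-led cluster against 70.96 CPM in the other, Mgp 4185 against 987 CPM, Gkn3 412 against 101.7 CPM and Bmx 217.4 against 166.8 CPM. The Fbln5-led cluster was higher in Fbln5, Mgp and Gkn3 in each set. For Bmx it was higher in Young1 (262.97 against 81.4 CPM) and AY_Y3 (273.5 against 188.03 CPM). In Young2 Bmx was lower in the Fbln5-led cluster, at 109.1 against 209.2 CPM. Its cells were shallower, with a median of 440382 counts against 652437.

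Fhl1 and Pi16 were the genes with the widest gap in share in favour of the Fbln5-led cluster. Fhl1 was found in 60% of its cells against 19.3% of the other cluster, with means of 315, 770 and 426 CPM in Young1, Young2 and AY_Y3 against 140.2, 85.1 and 82.6 CPM. Pi16 was found in 55% against 21.01%, with means of 624, 591 and 682 CPM against 389, 123.8 and 319 CPM. Neither gene's set means overlapped between clusters. Cdh13 (80% against 54.6%), Stmn2 (85% against 68.9%), Ccnd2 (97.5% against 80.7%) and Mylk (57.5% against 32.8%) had higher means that did not overlap either. In all, 6 of the 10 genes had higher means without overlap, where 4.48% of 8800 genes did.

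Nov, Lypd1 and Alox12 had lower set means without overlap in the Fbln5-led cluster, 3 of 10, where 9.69% of 8800 genes did. Nov was found in 12.5% of its cells against 34.5% of the other cluster, with means of 0, 94.9 and 211.2 CPM against 330, 486 and 253.1 CPM. For Alox12 the shares were 12.5% against 26.1%, and for Lypd1 47.5% against 53.8%, close to each other. Msx1 overlapped, at 42.5% against 43.7% of cells. Smooth muscle markers summed to 899.5 CPM in the Fbln5-led cluster against 33.02 CPM in the other, carried by 4 and 16 cells. Without those 20 cells, a comparison added after seeing the data, the shares were 58.3% against 22.3% for Fhl1, 55.6% against 17.5% for Pi16, 55.6% against 32.04% for Mylk and 11.1% against 33.01% for Nov.

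**Figure D5:**
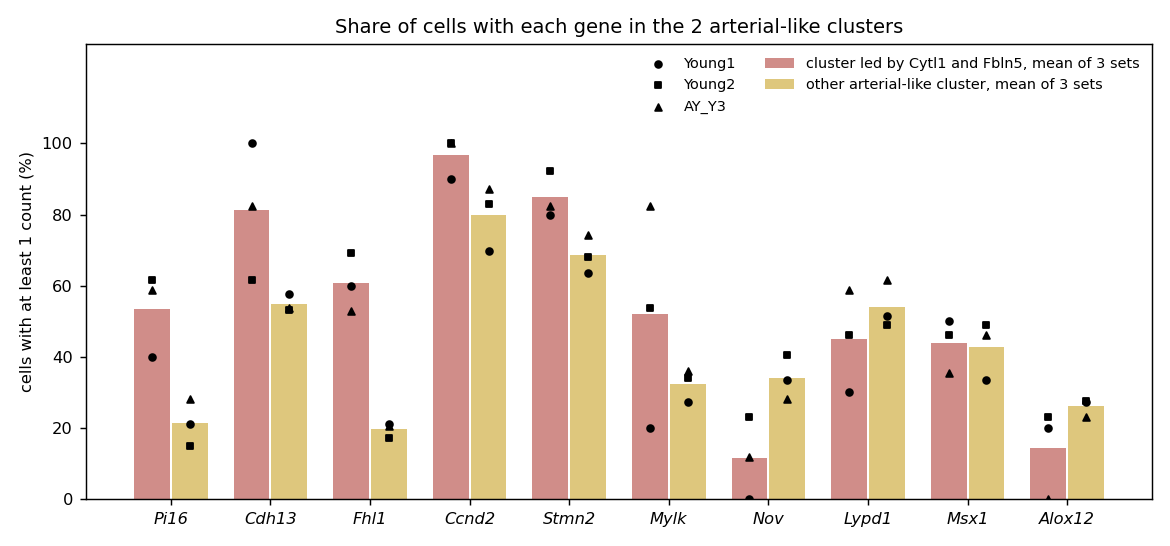
Share of cells with at least 1 count (%) in the arterial-like cluster led by Cytl1 and Fbln5 (40 cells, left bar of each pair) and in the other arterial-like cluster (right bar); bars are means of 3 sets and points the sets. Fhl1 and Pi16 are more frequent in the Fbln5-led cluster, and Nov and Alox12 less frequent.

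A test by marker level asked the same question on sums per set. Large-artery-marker cells had Fbln5 plus Mgp at 100 CPM or more, and arteriolar-marker cells had less than that but Bmx plus Gkn3 at 100 CPM or more (18 cells, of which only 2 in Young1). No gene of the 8433 tested passed in edgeR's quasi-likelihood test (0%), with 482 at an unadjusted p under 0.05, and none of the 10 did. Fhl1 had means of 247.9, 327 and 223.1 CPM in large-artery-marker cells of Young1, Young2 and AY_Y3 against 14.9, 107.6 and 16.6 CPM in arteriolar-marker cells, and a log2 fold change of 3.52 ± 1.88 (SE, adjusted p 0.835). For Nov the means were 186.02, 261.7 and 133.1 CPM against 404, 369 and 756 CPM, with −1.47 ± 0.98 (SE, adjusted p 0.882). The fit did not tell the difference of either gene from the spread between sets.

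The fitted median over all genes in that test was a log2 fold change of 2.06, higher in the large-artery-marker sums, which hold the larger number of cells. Relative to that median Fhl1, Pi16 (2.93 ± 1.76) and Mylk (2.44 ± 2.03) were above it, and Alox12 (1.64), Msx1 (1.04), Stmn2 (0.99), Lypd1 (0.94), Ccnd2 (0.18), Cdh13 (−0.34) and Nov below it. These places depended on the sets: with a set left out, the median of all genes ran from 1.12 to 3.88, Fhl1 from 3.03 to 4.36, Pi16 from 1.24 to 4.50, Mylk from 0.86 to 4.81 and Nov from −2.27 to −0.57. Without Young2 the median was 3.77, with Pi16 (1.24) and Mylk (0.86) below it, and without AY_Y3 it was 3.88, with Fhl1 (3.04) below it. DESeq2 called 2667 genes (31.6%), 2618 of them higher, and among the 10 genes Fhl1 (adjusted p 0.0102), Pi16 (0.0321) and Nov (0.0230, lower). Splitting the cells by Fbln5 alone or by the 2 clusters, both added after seeing the data, brought the median to 0.10 and −0.34, with 0 genes called by edgeR. In those splits Fhl1 stood at 2.32 and 3.08, Pi16 at 4.01 and 1.47, and Nov at −1.21 and −3.39.

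Genes most like each member in pattern were taken as the 3 with the highest mean within-set rho. Across 697 endothelial cells, S100a6, a calcium-binding protein, led for Pi16 (0.635) and Cdh13 (0.650) and came second for Nov (0.475). Clu, a secreted chaperone, led for Fhl1 (0.566) and Ccnd2 (0.582), and Laptm5, a lysosomal membrane protein, came second for Pi16 (0.616), Fhl1 (0.487), Cdh13 (0.641) and Ccnd2 (0.576). Stmn2 was most like Mgp (0.574), Mylk most like Mgp (0.399), and Lypd1 most like its neighbour Gpr39 (0.585), whose reads overlap. Alox12 had no close companion, with Cdk19 the nearest at 0.282. Across arterial-like cells alone, Pi16 was most like Scara3 (0.574) and S100a6 (0.571), Nov like Apold1 (0.433), Fhl1 like Clu (0.450) and Mylk like Vwf (0.355), which encodes von Willebrand factor.

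Relatives and partners of the genes, from lists of 71 names of which 53 were in the table, were mostly not told apart between classes. Of 32 tested, 0 passed against capillary-like cells in edgeR's quasi-likelihood test, where 1.36% of all genes passed in either direction. Without adjustment 10 had a p under 0.05, as did 956 of all 9192 genes. DESeq2 called 6, and 555 of the 9192 genes. Among the 6 were Ctgf, Ccnd1, Ccnd3, Cdk6 and Cdkn1c. In the edgeR fit Ctgf was lower in arterial-like cells, at a log2 fold change of −4.09. Ccnd1 (2.28), Ccnd3 (0.907), Cdk6 (1.31) and Cdkn1c (1.32) were higher.

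Against venous-like cells 3 of the 32 passed, all higher in arterial-like cells, where 2.21% of all genes passed in either direction. Ccnd1, the cyclin closest to Ccnd2, rose by a log2 fold change of 4.66 ± 0.74 (SE, edgeR adjusted p 0.01996). Cdkn1c, an inhibitor of cyclin-dependent kinases, rose by 3.17 ± 0.43 (adjusted p 0.0105). Both calls depended on the sets: Ccnd1 lost its call with any of the 3 left out (adjusted p 0.0865 to 0.150), and Cdkn1c without Young1 (0.0851) or Young2 (0.182). At clustering resolution 0.5 Ccnd1 (0.290) and Cdkn1c (0.311) lost theirs, and Ccnd1 also without the block (0.113), with no filter on low counts (0.0609) and without cells highest in mural markers (0.0843). Its log2 fold change in those 3 fits was 3.86, 4.70 and 5.55, so the last 2 lost the call at a fold no smaller than 4.66. The other 6 cyclin D partners tested (Ccnd3, Cdk4, Cdk6, Cdkn1a, Cdkn1b and Rb1) did not pass against venous-like cells, with log2 fold changes from −0.41 to 1.07 and adjusted p from 0.736 to 0.974. Ccnd2 itself had 5.72 ± 1.62 (SE, adjusted p 0.161) in this contrast, which chose it, and did not pass.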

How the data were processed

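The deposited file holds raw read counts per gene symbol and cell, with no normalization by the authors that its values show; per the labels, each sample is 1 cell. The submitters' processing notes name Bowtie 0.12.2, mm8 and mm10 but give them no role. Counter, annotation and strand use were not given in the sources used here, so reads of overlapping genes cannot be told apart. The 10 genes, the marker lists and the lists of relatives were chosen with earlier results of these data known, and the rule naming clusters was carried over from that earlier work.

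All 745 cells had at least 500 genes and 50000 counts, and no 2 cells were identical. Cells were clustered (Python 3.11.15, scikit-learn 1.9.0, leidenalg 0.10.2; 2000 variable genes, 10 principal components, 15 neighbours, resolution 1), and the endothelial ones again on 41 segment markers scaled within each set. A cluster took a name from at least 3 markers at 1.25 times their mean elsewhere or more and with a count in 25% of its cells, unless more of its top 10 genes by fold marked another class. No doublet caller was run. The sets held 225 (Young1), 258 (Young2) and 262 (AY_Y3) cells. Of the endothelial cells, 159 were arterial-like (43, 60 and 56 by set), 226 capillary-like (74, 77 and 75), 125 venous-like (36, 43 and 46) and 187 unnamed. The arterial-like clusters held 40 cells (Cytl1- and Fbln5-led) and 119 cells, and the marker subgroups 109 (large-artery) and 18 (arteriolar). Counts per cell set the precision of shares, which have exact binomial 95% intervals.

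Cells are not replicates: counts were summed per set and class (9 sums of 20771318 to 62256156 counts) or marker subgroup (6 sums), with set as a block because every class came from each set. edgeR 4.0.16 (R 4.3.3, TMM, quasi-likelihood test, filterByExpr, a count in 5% of cells, Benjamini-Hochberg over all tested genes at 0.05) gave the calls, with DESeq2 1.42.0 as an alternative. A run on simulated data drew all sums from 1 common profile, unlike the real sums, and nothing is read from it. Segment markers were left out of the tested genes. Named genes were the 10, the 4 markers Bmx, Gkn3, Fbln5 and Mgp, relatives past the test or otherwise those closest to it, and the 3 most like genes of each by within-set Spearman correlation (present in 5% of cells); not all of these are printed, and 1 relative is not reported here. Other settings tried were size factors, filters, sets left out, clustering resolutions, marker thresholds of 20 and 500 CPM, thinning, a minimum of 10 counts per cell, and omission of cells high in mural markers.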

Additional observations from a re-analysis of the deposited data

How the results depend on the processing

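The share of tested genes called moved with the tool and the sets. Against capillary-like cells 1.36% passed, 6.04% with DESeq2, 0.297% with no filter on low counts (which tests more genes), 0.122% at resolution 0.5 and 0.098% (without Young2) to 0.348% with a set left out. Against venous-like cells 2.21% passed, and under the same settings 8.01%, 0.537%, 0.401% and 0.12% (without Young2) to 0.696%. Without the set as a replicate block these shares were 1.27% and 2.06%, and that fit called 0 relatives against capillary-like cells and none of the 10 genes by marker level. Between large-artery-marker and arteriolar-marker cells 0% passed, but 31.6% with DESeq2, 0.0378% with no filter and 0% to 0.0477% with a set left out (0.0477% without Young2). DESeq2 called 6 relatives and 3 of the 10 genes where edgeR called 0. At resolution 0.5 Pi16 and Fhl1 lost their calls against capillary-like cells (adjusted p 0.192 and 0.358). The cause of these shifts was not tested.

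By marker level, Cdh13 turned from −0.34 to 0.53 (split by Fbln5 alone), 0.51 (split by cluster) and −0.59 to 0.11 with a set left out. Lypd1 turned to −0.46 and −0.94 in those splits, and Alox12 to −0.44 and −3.62, or −0.0493 to 5.94 with a set left out. Ccnd2 turned to −0.0521 with other size factors and −0.0528 with DESeq2, and stood at −0.29 to 0.46 with a set left out. Msx1 turned to −0.40 without the block, −0.20 by cluster, and −0.54 to 4.72 with a set left out. These are log2 fold changes, and the splits were added after seeing the data. Fhl1, Pi16, Mylk and Stmn2 kept a value above 0 and Nov one below 0 in each setting run. Fhl1, Pi16, Mylk and Stmn2 did not keep their side of the median of all genes. Stmn2, below that median in the main fit, stood at 0.83 without the block, where the median was 0.47. The mean share of arterial-like cells, 46.4%, moved to 43.02% at 10 counts or more and to 41.8% at resolution 0.5. The arteriolar-marker sums held the fewest cells, and the one of Young1 held 2 cells with 2124536 counts.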
